A study of Homo sapiens with 2 samples.

Results

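CD3D, CD3E, CD3G and CD247 encode the CD3 chains of the T cell receptor, CD4, CD8A and CD8B encode the T cell coreceptors, and CD2, CD5 and CD7 encode further receptors of the T cell surface. These 10 genes were chosen by name with earlier results of these data known. Their counts against all tested genes are thus a description and no independent test. Each gene matched a single row of the deposited table, 10 of 60586 genes in all. RNA from K562, a line established from a chronic myeloid leukaemia and labelled erythrocyte, was compared with RNA from MOLT4, a line established from a T cell acute lymphoblastic leukaemia and labelled T lymphoblast. Both were cultures in DMEM that held serum and antibiotics, no treatment is named, and the labels name 1 flask as the source of the RNA. Each is a tumour line and stands for no normal blood cell. The deposited value is an FPKM, fragments scaled to the length of the transcript and to the mapped fragments of the library, with 1 value per gene and line. The design text states 3 biological replicates but the series lists 1 sample per line, so no spread between replicates can be given for any value here. Where a pair of values is given without names, MOLT4 comes first.

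The alpha and beta chains of the T cell receptor bind antigen but have almost no tail inside the cell. Signals are carried by the CD3 chains, which assemble with the receptor as pairs of CD3E with CD3D, CD3E with CD3G and CD247 with itself, and a receptor that lacks a chain is poorly carried to the surface. CD4 and CD8 bind class II and class I MHC molecules and bring the kinase LCK to the receptor. In the thymus, cells pass from a stage with neither coreceptor through a stage with both to a stage with CD4 or CD8 alone. CD2 is an adhesion receptor, CD5 restrains receptor signals, and CD7 is among the earliest surface proteins of the T lineage.

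The part of the CD3 chains that takes up the signal is the immunoreceptor tyrosine-based activation motif, ITAM, in which a tyrosine is followed after 2 residues by a leucine or isoleucine, with the same unit again after a spacer. A search of the GENCODE release 29 coding sequences for such a pair of units with 6 to 8 codons between them found 6 ITAMs, 1 each in CD3D, CD3E and CD3G and 3 in CD247. They are shown because they are the module that all 4 CD3 genes share. The sequences are coding bases, 5′ to 3′ on the strand of the gene, and capitals mark the tyrosine, leucine and isoleucine codons. Coordinates are on GRCh38 and span an intron, since each of the 6 crosses an exon boundary.
CD3D, chr11:118339189-118339456, minus strand: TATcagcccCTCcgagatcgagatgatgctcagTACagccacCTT
CD3E, chr11:118314489-118315524, plus strand: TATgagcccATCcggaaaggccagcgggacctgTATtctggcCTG
CD3G, chr11:118351666-118352442, plus strand: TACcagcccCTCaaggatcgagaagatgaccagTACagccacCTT
CD247 motif 1, chr1:167438612-167439349, minus strand: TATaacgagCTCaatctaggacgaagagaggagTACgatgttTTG
CD247 motif 2, chr1:167434035-167435404, minus strand: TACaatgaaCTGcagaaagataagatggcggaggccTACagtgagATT
CD247 motif 3, chr1:167431708-167433029, minus strand: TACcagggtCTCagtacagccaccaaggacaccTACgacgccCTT
The motifs of CD3D and CD3G shared 38 of 45 bases, and the 9 other pairs of equal length shared 16 to 23.

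All 10 genes were tested by the authors, and all 10 were higher in MOLT4 by value. In the authors' deposited table, 9 of the 10 had a Cuffdiff q (Benjamini-Hochberg adjusted) no greater than 0.05 and are termed called, where 18.8% of the 18870 tested genes were called higher in MOLT4. None was called higher in K562, against 23.4% of tested genes, and 42.2% were called in either direction. With q no greater than 0.01 the authors' deposited table kept 9 of the 10, against a background of 15.4%. By ratio on FPKM + 1, 9 were at least 2-fold higher in MOLT4 (background 13.8%) and 8 at least 4-fold (background 5.35%). Of the 8 with a mean of at least 1 FPKM, 7 were called in the authors' deposited table, against 20.8% of all such tested genes. The gene that was not called is CD7. On a log2 scale with 1 FPKM added to each value, the median difference of the 10 genes was 4.60, against -0.06 over all tested genes. Summed over the 10 genes, MOLT4 held 1401 FPKM and K562 30.6 FPKM, of which CD3D alone made up 29.7 FPKM. In bulk RNA, fewer cells with a transcript and less of it in each cell cannot be told apart.

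**Figure D1:**
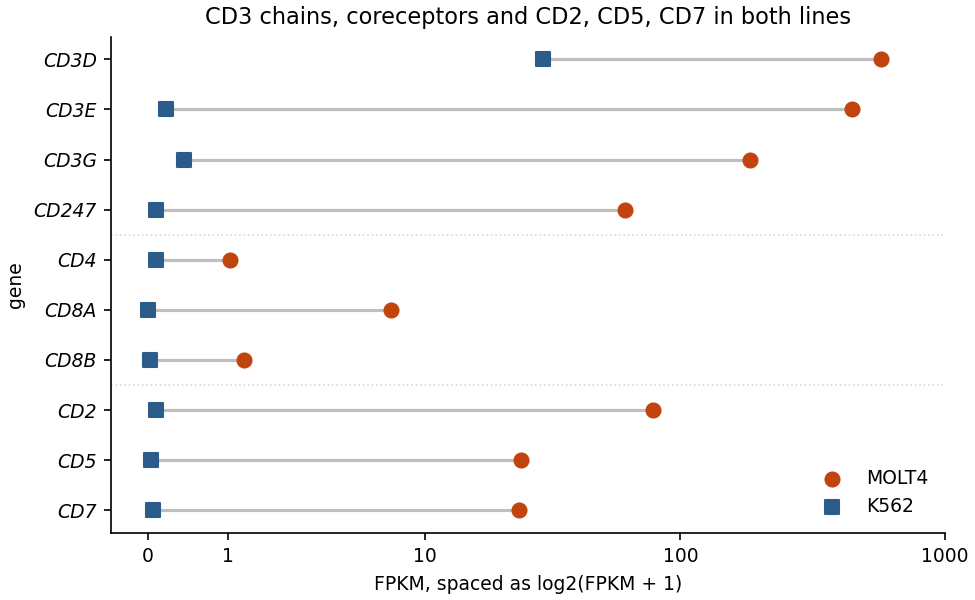
Level of each gene in MOLT4 (circles) and K562 (squares), in FPKM on an axis spaced as log2(FPKM + 1), with 1 deposited value per line and no error bars. The CD3 chains are at the top, the coreceptors in the middle, and CD2, CD5 and CD7 at the bottom; CD3D alone has a K562 value above 1 FPKM.

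CD3D, the delta chain (ENSG00000167286.9, chromosome 11, 118338954 to 118342744, minus strand, GRCh38), was at 574 FPKM in MOLT4, against 29.7 in K562. It ranked 167th of the 18870 tested genes in MOLT4 and 3779th in K562, where it stood above 80.0% of them. The ratio was 19.3, and the authors' deposited table gave a q of 0.000203. CD3E, the epsilon chain that both heterodimers need (ENSG00000198851.9, chromosome 11, 118304545 to 118316175, plus strand), was at 446 FPKM in MOLT4, against 0.165 in K562. Its log2 difference of 8.58 was the largest among the 10 genes (q = 0.000203 in the authors' deposited table), and in K562 it stood above 9.37% of tested genes. CD3G, the gamma chain (ENSG00000160654.10, chromosome 11, 118344344 to 118355161, plus strand), was at 183 FPKM in MOLT4, against 0.363 in K562, a log2 difference of 7.08 (q = 0.000203 in the authors' deposited table). CD247, the zeta chain (ENSG00000198821.10, chromosome 1, 167430640 to 167518610, minus strand), was at 61.5 FPKM in MOLT4, against 0.0732 in K562, a log2 difference of 5.86 with the same q in the authors' deposited table. All 4 chains were thus called, with CD3D the only chain above 1 FPKM in K562. 2 short genes lie within CD247 on its strand, AL359962.1 and AL359962.2, and neither exceeded 0.172 FPKM in either line.

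FPKM is scaled to transcript length, so the levels of the chains can be set side by side within a line. In MOLT4, CD3D made up 45.4% of the summed CD3 chain FPKM, CD3E 35.3%, CD3G 14.5% and CD247 4.86%. CD3D and CD3E were close to each other, at a ratio of 1.29, while CD3D exceeded CD3G 3.14-fold and CD247 9.34-fold. CD247, the chain with 3 ITAMs, was the lowest of the 4. In K562 the composition was another: CD3D made up 98.0% of the sum, at 180.2 times the level of CD3E and 81.9 times that of CD3G. With no spread between replicates, it cannot be said which neighbours in this order differ. The K562 ratios rest on values under 1 FPKM for the other 3 chains.

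CD3E, CD3D and CD3G lie together within 50617 bases of chromosome 11. CD3D and CD3G run in opposite directions from starts 1600 bases apart, and CD3E lies 22779 bases beyond the end of CD3D. On either side of the 1600 bases between the starts of CD3D and CD3G, the K562 levels were 29.7 FPKM for CD3D and 0.363 FPKM for CD3G. There was no spread to set them against. Around the cluster, 10 other tested genes have a deposited locus that reaches within 100 kb. The authors' deposited table called 1 of them higher in MOLT4, 2 higher in K562 and 7 in neither direction. The nearest on the side of CD3G, the ubiquitin ligase gene UBE4A, was at 15.2 FPKM in MOLT4, against 19.1 in K562 (q = 0.719 in the authors' deposited table). On the side of CD3E the nearest was MPZL3, at 1.63 and 3.09 FPKM and called higher in K562 (q = 0.0165 in the authors' deposited table). The subunit gene of ATP synthase ATP5MG, at 339 and 420.2 FPKM, and the histone methyltransferase gene KMT2A, at 14.7 and 12.3 FPKM, were not called. The MOLT4 levels of CD3D and CD3E were above those of all 10 of these genes.

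**Figure D2:**
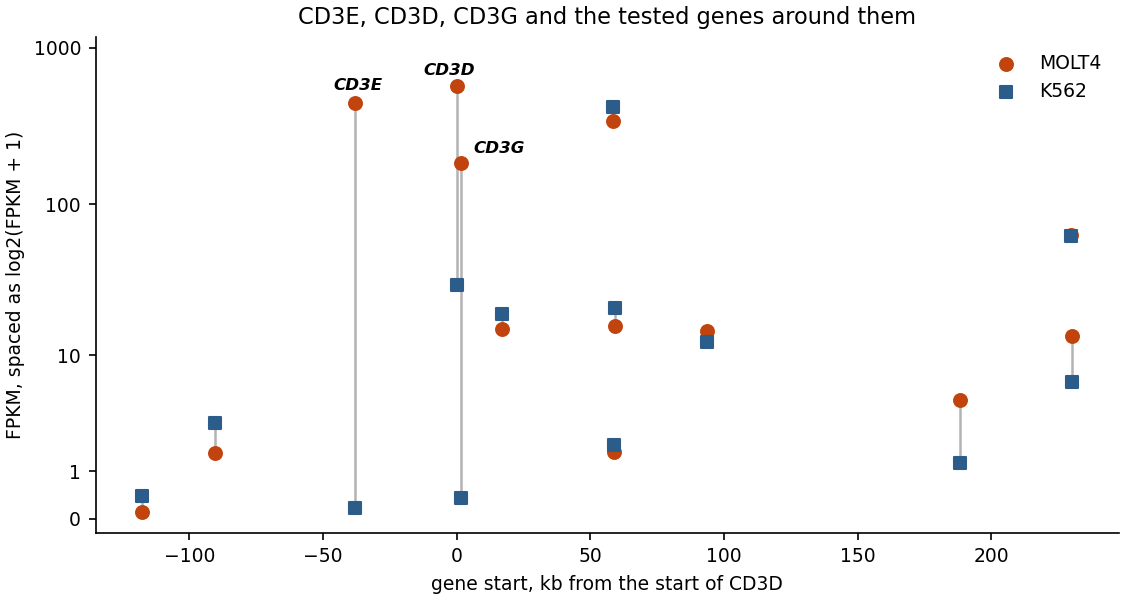
Level in FPKM (axis spaced as log2(FPKM + 1)) of CD3E, CD3D, CD3G and the 10 tested genes around them in MOLT4 (circles) and K562 (squares), against the distance of each gene's start from the start of CD3D in kb. Grey lines join the values of a gene; the long lines belong to the 3 CD3 genes, while neighbours such as ATP5MG, at 339 and 420.2 FPKM, have short ones.

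The coreceptor genes were low in MOLT4. CD8A, the alpha chain of CD8 (ENSG00000153563.15, chromosome 2, 86784610 to 86808396, minus strand), was at 7.19 FPKM in MOLT4, with 0 listed for K562, so that no ratio is given (q = 0.000203 in the authors' deposited table). CD8B, the beta chain (ENSG00000172116.23, chromosome 2, 86815339 to 86861924, minus strand), was at 1.30 FPKM in MOLT4, against 0.0192 in K562 (q = 0.00189 in the authors' deposited table). CD4 (ENSG00000010610.10, chromosome 12, 6786858 to 6820808, plus strand) was at 1.03 FPKM in MOLT4, against 0.0752 in K562 (q = 0.000203 in the authors' deposited table). All 3 were called, but on small levels: the coreceptors summed to 9.52 FPKM in MOLT4, against 1265 FPKM for the CD3 chains.

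Within MOLT4, CD8A stood at 5.52 times CD8B and 6.999 times CD4. CD3D stood at 559 times CD4. CD8A was above 56.1% of tested genes in MOLT4, CD8B above 34.9% and CD4 above 32.2%, so that CD4 and CD8B lay in the lower part of the range of tested genes although both were called. CD8B has a near-identical copy, CD8B2, which was listed at 0 in both lines, and fragments of the pair may have been split or dropped in the authors' counting, so its level is uncertain. The start of CD8B overlaps the pseudogene ANAPC1P1 on the other strand, which was at 0.0463 FPKM in MOLT4, against 0.0855 in K562. Around CD8A and CD8B, 8 other genes were tested. The authors' deposited table called 2 of them, both higher in MOLT4, 25% against the 18.8% of all tested genes. None was called higher in K562, against 23.4% of all tested genes. Of the 2 called genes, RGPD1, whose deposited locus is shared with CD8B, was at 0.819 and 0.00264 FPKM, and the processed transcript AC125232.2 at 3.03 and 0.942 FPKM. The nearest tested gene on the side of CD8A, RMND5A, was at 44.9 and 33.8 FPKM and was not called. Around CD4, 17 genes were tested, and the authors' deposited table called 2 each way (11.8% higher in MOLT4, against 18.8% of all tested genes). The nearest, GPR162, was at 0.248 FPKM in MOLT4, against 0.761 in K562, and the parathymosin gene PTMS on the other side at 5.15 and 192 FPKM. LAG3, a coreceptor-like receptor gene beside CD4, was at 0.255 and 0.116 FPKM and was not tested.

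CD2, CD5 and CD7 were above the coreceptors and below CD3D, CD3E and CD3G in MOLT4. CD2 (ENSG00000116824.5, chromosome 1, 116754385 to 116769228, plus strand) was at 78.3 FPKM in MOLT4, against 0.0667 in K562, a log2 difference of 6.22 (q = 0.00279 in the authors' deposited table). It exceeded CD247 in MOLT4, at a ratio of 1.27. CD5 (ENSG00000110448.11, chromosome 11, 61102395 to 61127852, plus strand) was at 24.3 FPKM in MOLT4, against 0.0241 in K562, a log2 difference of 4.62 (q = 0.00234 in the authors' deposited table). CD7 (ENSG00000173762.8, chromosome 17, 82314868 to 82317602, minus strand) was at 23.9 FPKM in MOLT4, against 0.0413 in K562. Its log2 difference of 4.58 was almost that of CD5, but the authors' deposited table gave a p of 0.0511 and a q of 0.105, and it was not called.

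The call did not follow the size of the difference among these genes. CD4, with a log2 difference of 0.91, had the smallest p that the authors' deposited table lists, 5e-05, which 6 of the 10 genes share, whereas CD7 was not called. Among 36 tested genes at 20 to 30 FPKM in MOLT4 and above 0 but under 0.1 FPKM in K562, a class that holds CD5 and CD7, the authors' deposited table called 22, with q from 0.000203 to 0.362. Of 185 tested genes at 10 FPKM or more in MOLT4 and under 0.1 FPKM in K562, it called 117, or 63.2%, and 4 of the 185 were CD2, CD5, CD7 and CD247.

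**Figure D3:**
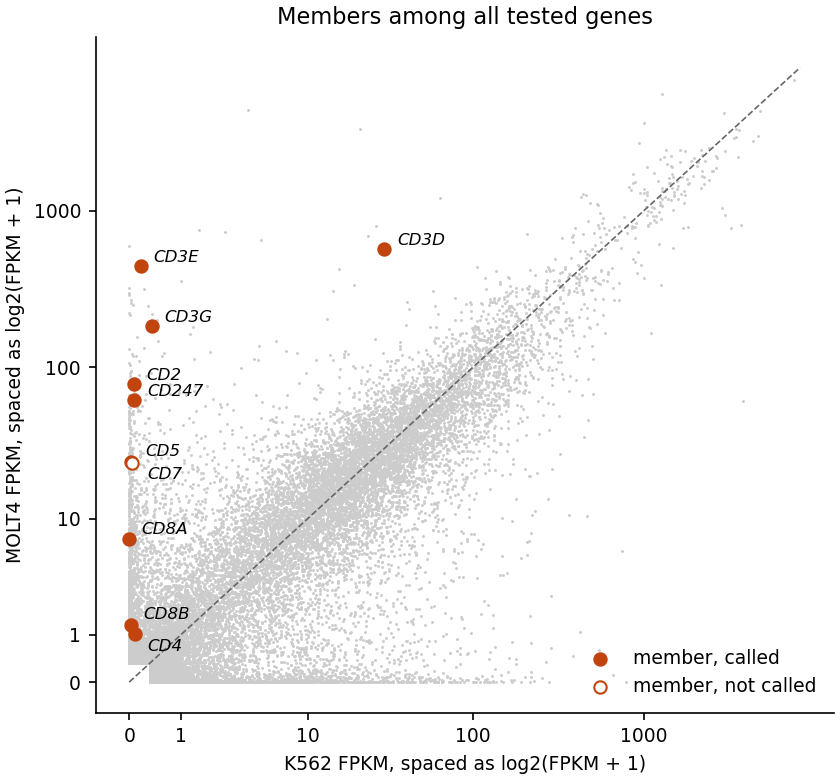
Level in MOLT4 against level in K562 for all 18870 tested genes (grey) and the 10 genes described here (orange, filled where called and open for CD7), both axes in FPKM spaced as log2(FPKM + 1), with the line of equal levels dashed. The other 9 genes sit at the left edge, under 1 FPKM in K562, and CD3D stands to the right at 29.7 FPKM.

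CD6, a receptor of the same scavenger family as CD5 that lies before it in the same direction, was at 20.5 FPKM in MOLT4, against 0.00546 in K562, and missed the threshold (q = 0.328 in the authors' deposited table). On the other side of CD5, VPS37C was at 2.59 and 13.2 FPKM and higher in K562 by call of the authors' deposited table. Next to CD247, the secreted glycoprotein gene CREG1 was at 10.6 FPKM in MOLT4, against 223 in K562, called higher in K562, and POU2F1, which encodes the factor OCT1, was at 6.76 and 4.74 FPKM, called higher in MOLT4 (q = 0.0301 in the authors' deposited table). Beside CD2, the single tested neighbour IGSF3 was at 0.651 and 8.85 FPKM and higher in K562 by call of the authors' deposited table. The nearest tested genes around CD7, AC132872.1 and TEX19, were not called. Over the 7 places, 51 neighbours were tested, and the authors' deposited table called 7 of them higher in MOLT4, 13.7% against the 18.8% of all tested genes, and 8 higher in K562, where 23.4% of all tested genes were. The calls among neighbours were thus no more frequent than over the whole table.

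RefSeq promoter sequences, taken here as the 250 bases before a transcript start on GRCh38.p14, matched 4 of the 10 genes, CD3D, CD247, CD2 and CD8A, with 4 starts for CD8A. They were searched on both strands for short motifs of factor families known in T and blood cells: TGNGGT for RUNX, GGAAG for ETS, CANNTG for E proteins, CTTTGA for TCF and LEF, and AGATAA for GATA. The sequences of CD3D, CD247 and CD2, which had a single start each, are shown 5′ to 3′ on the strand of the gene. They run from base -250 to the last base before the gene start in GENCODE, with motif matches in capitals.
CD3D, chr11:118342745-118342955, minus strand: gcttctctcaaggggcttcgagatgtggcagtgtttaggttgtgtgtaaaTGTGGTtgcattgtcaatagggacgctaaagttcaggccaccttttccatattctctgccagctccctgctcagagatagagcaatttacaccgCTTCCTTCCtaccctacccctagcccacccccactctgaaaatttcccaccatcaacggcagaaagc
CD247, chr1:167518611-167518779, minus strand: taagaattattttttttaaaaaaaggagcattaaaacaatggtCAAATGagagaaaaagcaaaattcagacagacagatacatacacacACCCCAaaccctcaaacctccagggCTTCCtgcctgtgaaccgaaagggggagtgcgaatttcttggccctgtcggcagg
CD2, chr1:116754180-116754384, plus strand: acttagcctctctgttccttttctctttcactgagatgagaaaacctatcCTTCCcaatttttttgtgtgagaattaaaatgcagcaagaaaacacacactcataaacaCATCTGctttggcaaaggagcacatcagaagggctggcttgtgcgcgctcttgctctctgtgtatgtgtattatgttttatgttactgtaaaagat
The promoter of CD3D held a RUNX match at -200 and a pair of overlapping ETS matches from -106 to -98, and no match to the E box, TCF/LEF or GATA letters. In CD247 a match to TGNGGT lay at -161, as TGGGGT on the other strand, since N admits any base. An ETS match lay at -136 and an E box match at -207. A second E box match of CD247, from -85 to -80, runs over the end of the stretch shown and is left in lower case. Nearer its start, outside that stretch, CD247 also had a match to CTTTGA at -74 and an ETS match at -52. CD2 had an ETS match at -200 and E box matches at -141 and, outside the stretch shown, at -34. Such short motifs are common: of 35114 promoter windows of the same length, 37.7% held the RUNX letters, 65.1% the ETS letters, 61.8% an E box, 11.2% the TCF/LEF letters and 9.17% the GATA letters. Of the 4 windows of CD8A, RUNX letters were in 2, ETS letters in 2 and an E box in 3. The GATA letters were in none of the 7 windows of these 4 genes.

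Of the T cell receptor chain genes, 6 of 7 were tested. The authors' deposited table called 2 of these, both higher in MOLT4, 33.3% against the 18.8% of all tested genes. None was called the other way, against 23.4% of all tested genes. TRBC1 was higher in K562 at an unadjusted Cuffdiff p under 0.05, at 15.5 FPKM in MOLT4, against 22.7 in K562 (q = 0.0708 in the authors' deposited table). TRDC was listed at 0 in MOLT4, against 4.90 FPKM in K562 (q = 0.161 in the authors' deposited table). TRBC2, a beta chain constant region, was at 3303 FPKM in MOLT4, against 21.1 in K562, and TRAC, the alpha chain constant region, at 13.9 and 0.624 FPKM. TRBC2 and TRBC1 are near-identical copies, so their separate levels are uncertain. PTCRA, which encodes the alpha chain of the pre-receptor that pairs with beta before alpha is made, was at 5.12 and 0.0787 FPKM (q = 0.166 in the authors' deposited table).

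Of 23 genes for kinases, adaptors and regulators next to the receptor, the authors' deposited table called 16 higher in MOLT4. This was 69.6% against the 18.8% of all tested genes. None was called the other way, against 23.4% of all tested genes. At an unadjusted Cuffdiff p under 0.05 none was higher in K562 either. This list, like the others, was chosen with earlier results of these data known. The largest log2 difference among those called was 6.79 for ZAP70, the kinase that binds phosphorylated ITAMs, at 134 FPKM in MOLT4, against 0.214 in K562. The smallest was 0.47 for CSK, which inactivates LCK, at 53.8 and 38.6 FPKM (q = 0.0343 in the authors' deposited table). LCK, the kinase held by the tails of CD4 and CD8, was at 250.3 FPKM in MOLT4, against 0.0480 in K562 and, like CD7, missed the threshold (q = 0.0833 in the authors' deposited table). SYK, the relative of ZAP70 used by B cells and myeloid cells, was at 0.00779 and 20.9 FPKM (q = 0.136 in the authors' deposited table). Genes for adaptors that lower CD3 at the cell surface included SLA, at 19.99 FPKM in MOLT4, with 0 listed for K562, and SLA2, at 7.14 and 1.56 FPKM, both called higher in MOLT4 in the authors' deposited table.

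The genes that encode ligands and binding partners of the 10 receptors were divided. Of 14, 13 were tested. The authors' deposited table called 7 toward MOLT4, 53.8% against the 18.8% of all tested genes. It called 4 toward K562, where 23.4% of all tested genes were called. CD58, a ligand of CD2, was higher in K562, at 35.5 FPKM against 18.6 FPKM in MOLT4 (q = 0.000203 in the authors' deposited table). CD48 and CD72 of the same list went the other way, at 16.6 and 2.52 FPKM in MOLT4, against 0.0190 and 0.837 in K562. The authors' deposited table called both higher in MOLT4 (q = 0.0145 and 0.00368). LGALS1, which encodes galectin-1, a lectin that binds CD7, was at 0.465 FPKM in MOLT4, against 388 in K562, the largest difference toward K562 in the list. IL16, a soluble ligand of CD4, was at 1.40 and 20.6 FPKM, and CD59, a complement inhibitor, at 37.8 and 120.0 FPKM, both higher in K562 by call of the authors' deposited table. PSTPIP1, which binds the tail of CD2, was at 6.82 FPKM and listed at 0 in K562. CD2AP and CD2BP2, which also bind that tail, were at 42.1 and 35.2 FPKM in MOLT4 and 44.5 and 26.4 FPKM in K562 and were not called in the authors' deposited table. SECTM1, the gene beside CD7 that encodes a ligand of it, was at 0.0385 and 0.0709 FPKM and was not tested.

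Of 22 other T cell surface genes, 16 were tested. The authors' deposited table called 6 toward MOLT4, 37.5% against the 18.8% of all tested genes. It called 3 toward K562, where 23.4% of all tested genes were called. CD96, an adhesion receptor, was at 58.1 FPKM in MOLT4, against 2.38 in K562, the largest called difference toward MOLT4. The called genes toward K562 were CD226, which shares a ligand with CD96, at 0.558 and 6.02 FPKM, the sialomucin gene SPN at 66.1 and 123 FPKM, and the tetraspanin gene CD53 at 58.0 and 93.4 FPKM. CD28, the main costimulatory receptor, was at 1.40 FPKM and listed at 0 in K562. Of 5 genes for ITAM adaptors of other receptors and their relatives, the authors' deposited table called 1 higher in MOLT4. This share of 20% was close to the 18.8% of all tested genes. The called gene was CD79B, at 0.719 FPKM in MOLT4, against 0.244 in K562. None was called higher in K562, against 23.4% of all tested genes (2 were higher there at an unadjusted Cuffdiff p under 0.05). FCER1G, a relative of CD247, was at 0.113 and 0.379 FPKM (q = 0.0910 in the authors' deposited table).

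**Figure D4:**
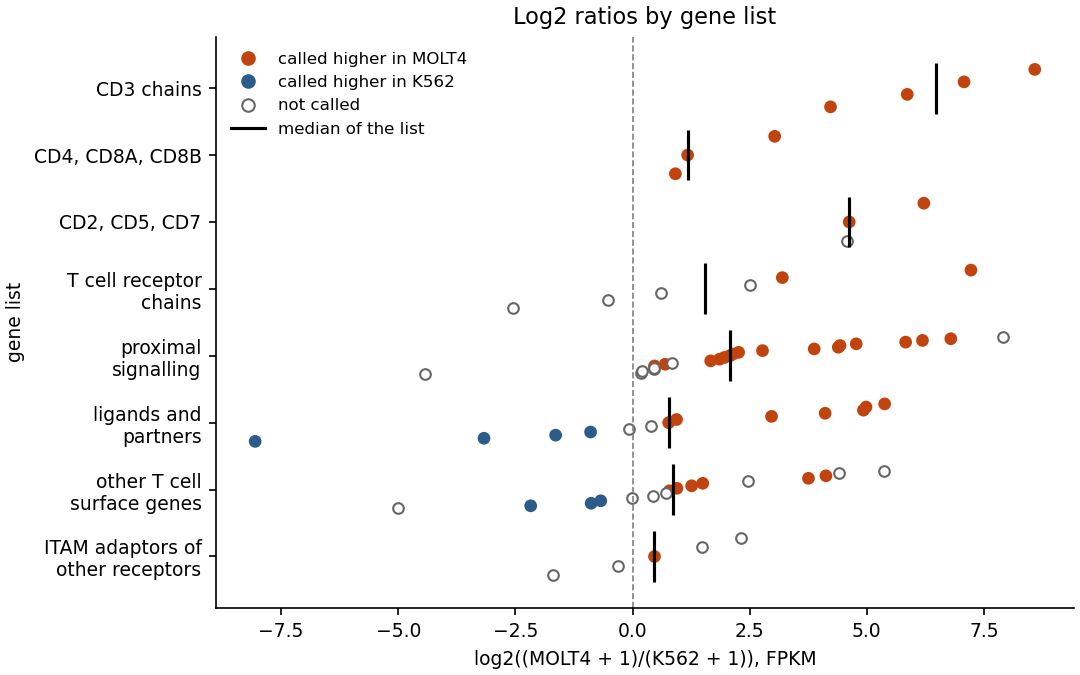
Log2 difference of MOLT4 against K562 (1 FPKM added to each value) for the tested genes of each list, filled orange where called higher in MOLT4, filled blue where called higher in K562 and open where not called, with the median of each list as a black bar. The medians are 6.47 for the CD3 chains, 1.18 for the coreceptors and 4.62 for CD2, CD5 and CD7, and the lists of ligands and of other surface genes hold genes on either side of 0.

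Levels across the lines most like those of single genes were found by distance on the plane of log2(FPKM + 1) in MOLT4 and K562, over 2 lines only. Nearest to CD3E were FXYD2, NREP and DNTT, at distances of 0.48, 0.49 and 0.52. Nearest to CD3D were LEF1, ITM2A and CDK6, at 0.42, 0.51 and 0.96, and LEF1 was the single tested gene within 0.5. For CD4, 1357 tested genes lay within 0.5, of which the nearest were PRR36, FABP6 and AC022167.3. These counts depend on how many genes lie at each level, and low levels lie close together on this scale. In MOLT4, CD3D and CD3E ranked 167th and 185th of 18870 tested genes and CD4 12793rd. The counts are thus no trait particular to these genes.

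Marker genes of other cell types were measured in the same lines. Of 8 erythroid markers the authors' deposited table called 6 higher in K562, where 23.4% of all tested genes were called. All 8 together summed to 782 FPKM in K562, against 0.152 FPKM in MOLT4 with 6 listed at 0. The 5 B cell markers summed to 3.18 and 3.75 FPKM, and the 6 natural killer markers to 1.58 and 1.14 FPKM. The 6 myeloid markers summed to 0.283 and 22.3 FPKM, of which CD33 made up 20.5 FPKM. The T cell label of MOLT4 matched the levels of its CD3 chains, CD2, CD5 and CD7, while CD4 and CD8B were near 1 FPKM. In K562 the 9 genes other than CD3D summed to 0.828 FPKM and none exceeded 0.363 FPKM. The part that other cells could have in the K562 level of CD3D was not tested.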

How the data were processed

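RNA sequencing of K562 and MOLT4 was deposited as a Cuffdiff table, with 1 FPKM value per gene and line and the authors' p-value and q-value per gene. The tools named per the submitters' processing notes are TopHat2 (2.1.1), Cuffdiff, CASAVA (1.8.2) and Cufflinks (2.2.2), with the builds GRCh38.p13 and hg38. Whether the values pool replicates, how the lines were normalized against each other and whether strand was used are not given in the sources used here. The depth is unknown, so no interval is given, and if the q-values rest on 1 library per line they compare those libraries. The deposited q-values were recomputed by Benjamini-Hochberg adjustment over all 18870 tested genes and agreed within 1% for each.

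Gene positions are those of GENCODE release 29, matched without the version of the identifier (96.5% of identifiers). Promoters are RefSeq sequences, and coding sequences are from GENCODE. Log2 differences were computed as log2((MOLT4 + 1)/(K562 + 1)). The members and lists were chosen with earlier results of these data known. Named genes are the 10 members, for each list the called genes with the largest and smallest difference and those called against its direction, the nearest neighbours and the nearest genes in level. Any other gene was named after its values were seen. A gene of the ligand list that this rule selects is not reported here. Python 3.11.15, pandas 2.3.3 and NumPy 2.4.6 were used. The adjustment and the motif search were tested on simulated data.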

Additional observations from a re-analysis of the deposited data

How the results depend on the processing

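The count of 9 genes called higher in MOLT4 was also 9 at a q of at most 0.01 and 9 at a ratio of at least 2 on FPKM + 1, where CD4 drops out and CD7 enters. It was 8 at a ratio of at least 4, with CD7 and without CD4 and CD8B, and 7 with a mean of at least 1 FPKM, without CD4, CD8B and CD7. The first 3 rules passed 15.4%, 13.8% and 5.35% of the 18870 tested genes, and the last 20.8% of the 14103 with such a mean. The median log2 difference of the 10 genes, 4.60, was 7.51 with a pseudocount of 0.1 FPKM and 2.30 with 10 FPKM, since most K562 values are near 0. Scaling to equal FPKM sums, which raises MOLT4 by 0.11 on the log2 scale, gave 4.71, scaling to the median ratio 4.63, and scaling to the housekeeping list 4.67. No pseudocount can turn the sign of a gene, and each of these scalings raises MOLT4, so none of them bears on the direction of the 10 genes. The single called ITAM adaptor of another receptor, CD79B, was lost at a q of at most 0.01 and with a mean of at least 1 FPKM, which left 0. At a q of at most 0.01 the genes called higher in MOLT4 also went from 16 to 14 for the signalling genes, where CSK and SLA2 were lost, and from 7 to 6 for ligands and partners, where CD48 was lost. With a mean of at least 1 FPKM those of the other surface genes went from 6 to 4. The shares of the CD3 chains did not change in MOLT4 with chains under 1 FPKM there left out, since no chain was. No paired analysis was possible because 1 value per line was deposited, and for the same reason no replicate could be left out.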
